A study of Mus musculus with 6 samples.

Results

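The 10 genes described here are known for the identity or maturation of dentate granule neurons, the principal excitatory cells of the hippocampal dentate gyrus: Prox1, Bcl11b, Neurod1, Neurod2, Tbr1, Tcf4, Calb1, Calb2, C1ql2 and Dsp. They were chosen by name and are 10 of the 25544 annotated genes that held at least 1 measured cytosine. Reduced representation bisulfite sequencing (RRBS), which reads the methylation of cytosines near the cut sites of a restriction enzyme, was applied to dentate gyrus tissue of 6 female C57BL/6JRj mice aged 4.5 months. Of these, 3 mice had lived in standard housing cages (STD) and 3 in an enriched environment (ENR), and each mouse gave 1 library. The mice were an inbred strain with no transgene. ENR mice shared an enclosure according to the study's methods, so that an effect of the enclosure and an effect of enrichment cannot be told apart. The comparison of ENR with STD asks whether a stimulus-rich environment goes with another methylation level at these genes.

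Granule neurons arise from progenitors throughout life. Prox1 and Bcl11b are transcription factors that specify and maintain the granule fate, Neurod1 and Neurod2 are basic helix-loop-helix factors of neuronal differentiation, Tbr1 is a T-box factor of glutamatergic neurons and Tcf4 is a dimerization partner of proneural factors. Calb1 encodes the calcium buffer calbindin of mature granule neurons and Calb2 encodes calretinin of immature ones, while C1ql2, a secreted synaptic protein, and Dsp, the desmosomal protein desmoplakin, are widely used to mark granule neurons. Methylated cytosines in CpG dinucleotides are usual in gene bodies and between genes, whereas promoters rich in CpG are mostly free of methylation. Because the tissue was not sorted, a level is an average over all cells of the dentate gyrus, and a change in the share of cells of a type cannot be told apart from a change of methylation within cells. Methylation does not read expression, so the labelled tissue was not checked against its markers by these data.

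The deposited table gave the percent methylation of 890041 cytosines in all 6 libraries. Each value rests on at least 10 reads, but the number of reads is not in the table used here, so the depth behind a value is unknown and no counting interval is given. The 10 genes, taken from 1 kb before the gene start to the gene end, held 1088 of these sites (0.122%). Mean methylation over all sites was 22.5% to 24.3% in the STD libraries and 21.3% to 24.2% in the ENR libraries. At sites with an overall mean of 20% to 80%, both libraries numbered 3 were low, with 43.6% in STD replicate 3 and 37.6% in ENR replicate 3 against 50.9% to 52.3% in the other 4. Over the sites of the 10 genes, the 6 library means were 12.1%, 12.5% and 10.9% in STD and 12.9%, 12.3% and 9.89% in ENR. The low means of both libraries numbered 3 are thus also seen at these genes, and differences of Neurod2, Calb2, Calb1 and Tcf4 are also given without them.

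Coverage was uneven among the genes. Tcf4 held 299 sites and Bcl11b 276, followed by C1ql2 with 104, Dsp with 99, Prox1 with 86, Tbr1 with 77, Neurod2 with 76, Calb2 with 39, Neurod1 with 24 and Calb1 with 8. The share of a gene's CpGs that were covered ranged from 2.35% in Calb1 to 42.9% in C1ql2. Of the 1088 sites, 321 lay within 1 kb of the gene start, called the promoter here, and 767 lay beyond it, called the gene body. By annotation, 599 sites were intronic, 208 lay in untranslated exon parts, 177 in coding exons, 97 upstream of the start and 7 in other exons. Calb1 had no site in its body. Prox1, Neurod1, Dsp and Tcf4 overlap other gene records (Gm28172 and Prox1os, Cerkl and Gm26755, Gm10129, and Gm24845, respectively), so sites there cannot be given to a single gene.

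Most of the covered sequence was lowly methylated. At 763 of the 1088 sites (70.1%) the mean over libraries was under 10%, compared with 63.7% of all sites in the table, and 240 sites were at 0 in every library. Intermediate levels of 20% to 80% were found at 155 sites (14.2%), close to the 14.6% of all sites. Mean methylation was 1.69% at upstream sites, 3.57% in untranslated exon parts, 14.5% in introns and 17.8% in coding exons. RefSeq promoter windows (GRCm38.p6, from 250 bases before to 50 after a start) were used for 7 of the genes, with 8 windows in all, and left out Calb1, Calb2 and Tcf4. These held 7 to 27 CpGs each, compared with a median of 7 over the 32851 windows of the table, and 7 of the 8 held the letters CCGG, the cut site used in RRBS, which reads the same on both strands. CCGG was present in 52.8% of all windows, and the Tbr1 window was the one without it.

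Promoters of the identity genes other than Neurod2, Tbr1 and Tcf4 were close to unmethylated in all mice. The mean over the 6 libraries was 0.861% for Dsp, 1.40% for C1ql2, 1.5% for Calb1, 1.65% for Prox1, 1.77% for Bcl11b, 1.79% for Calb2, 1.97% for Neurod1, 3.51% for Neurod2, 4.54% for Tbr1 and 12.5% for Tcf4. The median over the 17950 promoters with at least 3 sites and some variation was 1.80%. The Dsp promoter stood at a lower level than all but 5.22% of promoters, whereas 82.1% of promoters were below that of Tcf4. The Tcf4 value came mainly from 2 intronic sites at 405 and 425 bp from the start of the gene record, whose mean over both was 95.7%, 80.8% and 95.8% in STD and 89.3%, 43.8% and 39.0% in ENR. The groups overlapped there. Tcf4 has 58 annotated transcript starts, and when sites within 1 kb of any of them were taken (111 sites), its promoter level was 4.37%.

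**Figure D1:**
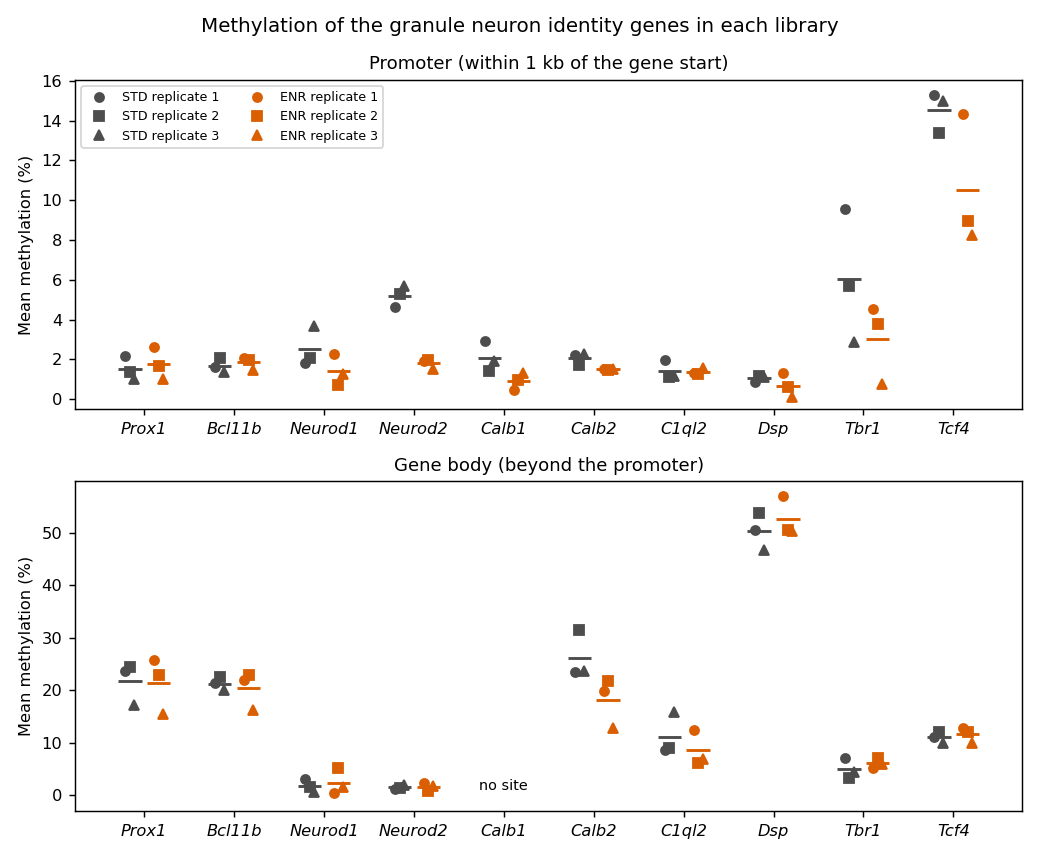
Mean methylation (%) of the promoter (top) and gene body (bottom) of the 10 genes, with 1 point per library and a bar at the mean of 3 libraries, STD in grey and ENR in orange. Promoters other than those of Tbr1 and Tcf4 lie under 6% in every library, and the bodies range from about 2% in Neurod1 and Neurod2 to over 46% in Dsp.

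Gene bodies separated the genes much more than promoters did. The mean over libraries in each group was highest for Dsp, with 50.3% ± 3.5 in STD and 52.6% ± 3.8 in ENR (SD, n = 3 mice each). Calb2, Prox1 and Bcl11b followed, with STD means of 26.2% ± 4.5, 21.7% ± 4.0 and 21.2% ± 1.2. The STD libraries of Prox1 overlapped with those of both other genes, whereas every STD value of Calb2 was above every one of Bcl11b. Tcf4 with 11.1% ± 1.1 and C1ql2 with 11.1% ± 4.1 did not differ beyond their spread either. The body of Tbr1 had 4.92% ± 2.0, and those of Neurod1 (1.74% ± 1.2) and Neurod2 (1.48% ± 0.42) stayed as low as promoters. The median over the 14012 bodies tested was 43.1%, and of the 9 covered bodies only that of Dsp was above it. Only 3.55% of gene bodies had a lower level than that of Neurod2.

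The difference between gene body and promoter was tested within libraries by limma with Benjamini-Hochberg adjustment over 9152 genes. The body was above the promoter in 5 of 9 genes, while this was so in 82.2% of all genes tested. These were Dsp (by 50.6 percentage points ± 1.8 SE, adjusted p = 5.1e-07), Calb2 (20.4 ± 1.7, 3.3e-05), Prox1 (19.9 ± 1.5, 2.0e-05), Bcl11b (19.0 ± 1.0, 3.4e-06) and C1ql2 (8.43 ± 1.4, 0.0012). With medians over sites, C1ql2 no longer passed (2.72 points, adjusted p = 0.050), while Tcf4 did (4.24 points, adjusted p = 0.012). Neurod2 had a body below its promoter by this test, with a difference of -1.98 points ± 0.54 (adjusted p = 0.013), as did 5.29% of genes. This mean joins STD differences of -3.53, -3.91 and -3.73 points with ENR differences of 0.34, -1.22 and 0.16, so that the body was above the promoter in 2 of 3 ENR mice. The call was lost with medians over sites (-2.08 points, adjusted p = 0.074) and turned over when the promoter was limited to the 1 kb upstream of the start, with the body then higher by 2.04 points (adjusted p = 0.003). Tbr1 (0.96 points, adjusted p = 0.35), Neurod1 (0.07, 0.95) and Tcf4 (-1.22, 0.23) did not pass. Tcf4 passed, with the body higher by 11.1 points, when sites near any of its transcript starts were counted as promoter.

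Dsp (chr13:38151294-38198577, plus strand, mm10) went from a nearly unmethylated start to a nearly fully methylated end. Runs of sites, with gaps of at most 100 bp, stood at 0.706% at 76 to 219 bp from the start, 1.12% at 394 to 615 bp, 1.85% at 804 to 1063 bp and 1.77% at 1407 to 1464 bp. The next run of at least 3 sites, at 1867 to 1963 bp in an intron, had 16.4%. Its values were 26.7%, 14.2% and 8.39% in STD and 28.97%, 8.97% and 11.4% in ENR, so that this step was present in all 6 mice. Further on, the level was 64.0% over 2 sites at 3019 to 3073 bp, 30.9% at 13550 to 13572 bp, 66.4% at 20805 to 20836 bp and 97.0% over 14 coding sites at 44245 to 44383 bp. The bases around the first site after the step are shown because they hold the first covered CpGs after it, which are in capitals (chr13:38153061-38153261, plus strand).
Dsp step: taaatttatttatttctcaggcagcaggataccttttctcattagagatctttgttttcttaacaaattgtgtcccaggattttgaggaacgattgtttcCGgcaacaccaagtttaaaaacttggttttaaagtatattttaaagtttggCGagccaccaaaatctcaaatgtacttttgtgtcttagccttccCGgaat

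Prox1 (chr1:190118035-190170714, minus strand) had a less regular course. Its run at the start (23 sites at -103 to 185 bp) had 1.44%, and a run at 8406 to 8502 bp, partly coding, had 7.69%. The level was then 33.6% at 20543 to 20686 bp, 16.5% at 20942 to 21061 bp, 71.9% at 28307 to 28371 bp, 29.98% at 31379 to 31529 bp and 3.33% at 32744 to 32816 bp, all intronic. The low level of this last run was found in each mouse, with 3.20%, 5.27% and 2.72% in STD and 0%, 4.76% and 4.04% in ENR. In the run of 71.9%, both libraries numbered 3 were the lowest, with 58.8% in STD replicate 3 and 40.8% in ENR replicate 3 against 74.2% to 86.4% in the others. The steepest change per base between neighbouring runs of at least 3 sites was the fall from 33.6% to 16.5% across 256 bp, and the bases around the first site behind it are given on the gene's strand, with covered CpGs in capitals (chr1:190149672-190149872).
Prox1 step: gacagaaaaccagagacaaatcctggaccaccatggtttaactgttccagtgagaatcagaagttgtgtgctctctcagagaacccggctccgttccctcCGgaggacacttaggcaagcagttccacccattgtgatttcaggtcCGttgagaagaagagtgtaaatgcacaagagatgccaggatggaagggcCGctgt

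Bcl11b (chr12:107910403-108003602, minus strand) alternated between low and high runs along its length. Runs within 1.6 kb of the start stood under 3.5%. Introns held runs of 34.3% at 12147 to 12315 bp, 3.14% at 23004 to 23201 bp, 35.7% at 28354 to 28449 bp, 56.8% at 36371 to 36482 bp and 4.32% at 52416 to 52537 bp. Towards the end of the gene, 3 intronic sites at 76992 to 77046 bp had 95.1% and 6 coding sites at 87862 to 87920 bp had 98.7%. Both of these last runs were highly methylated in every library, the lowest value being that of ENR replicate 3 at 76992 to 77046 bp.

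**Figure D2:**
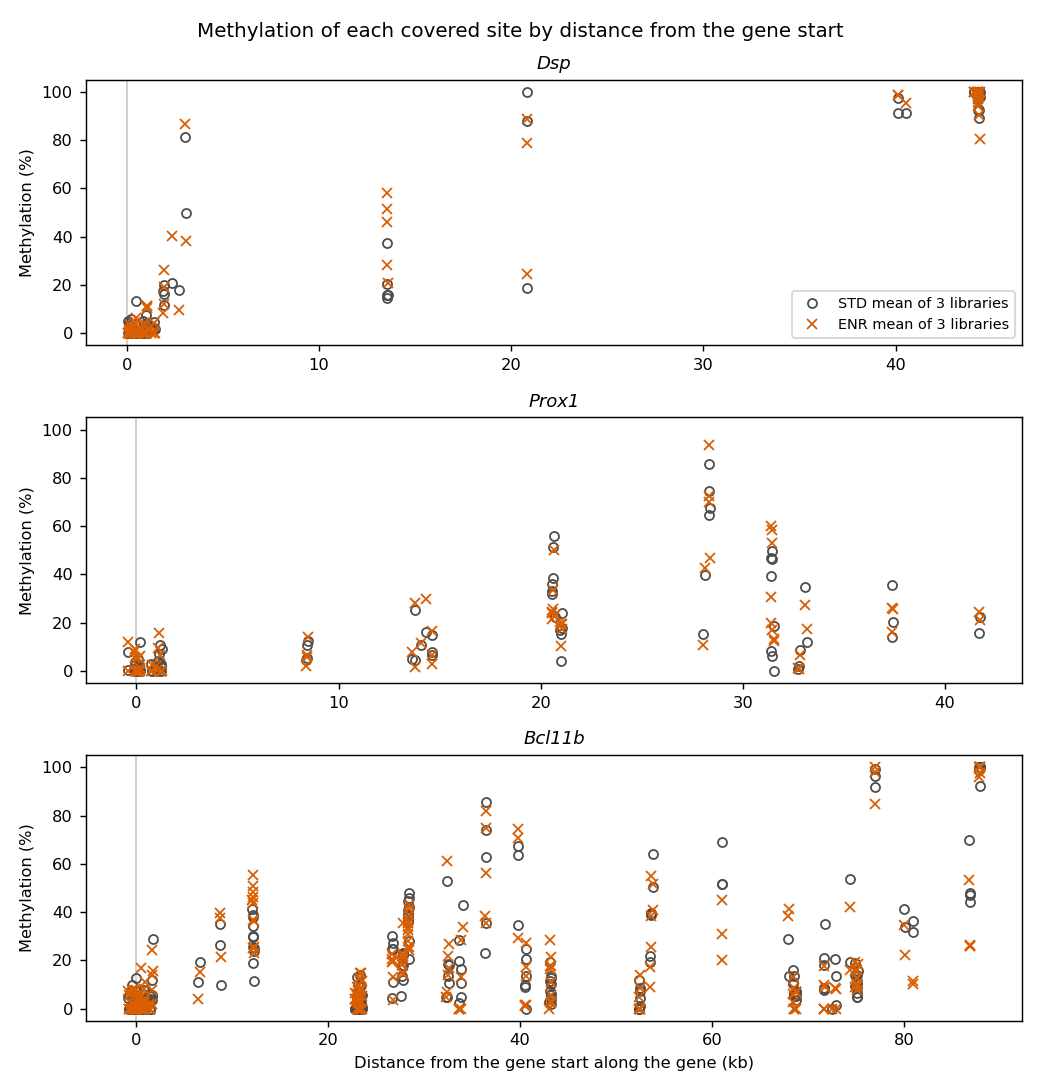
Methylation (%) of each covered site against its distance from the gene start (kb) in Dsp, Prox1 and Bcl11b, with STD means as open grey circles and ENR means as orange crosses (3 libraries each). Sites at the start are near 0% in all 3 genes, Dsp reaches over 90% beyond 40 kb, and Prox1 and Bcl11b hold both low and high sites inside the gene.

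Tbr1, C1ql2 and Neurod1 were flatter. In Tbr1 (chr2:61802930-61814114, plus strand), runs of at least 3 sites stood between 1.3% and 12.9%, the highest being 8 coding sites at 8746 to 8803 bp. C1ql2 (chr1:120340582-120343174, plus strand) had 1.40% over 85 sites from -100 to 850 bp, 8.64% over 8 intronic sites and 10.7% over 11 sites in its last untranslated part. Both covered coding runs of Neurod1 (chr2:79452521-79456751, minus strand) were at about 2%, like its promoter. Tcf4 (chr18:69343356-69689079, plus strand) had 34 runs of at least 3 sites, from 0.242% at 271114 to 271189 bp to 43.5% at 340543 to 340598 bp. As a description across sites, which share libraries and lie next to each other, Spearman's rho of level with distance from the start was 0.81 in Dsp (99 sites), 0.76 in Prox1 (86 sites), 0.63 in Calb2 (39 sites) and 0.60 in Bcl11b (276 sites). It was 0.11 in Tcf4 (299 sites) and -0.19 in Neurod2 (76 sites).

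None of the 10 genes passed the test of ENR against STD across all genes. Over whole regions, 0 of the 10 genes and 0% of the 22934 genes tested passed an adjusted p of 0.05 by limma, while 1 of 10, Calb2, had an unadjusted p under 0.05 (3.86% of all genes). The smallest p that an exact permutation test of 3 against 3 mice allows is 0.1, two-sided, so that this test could not pass for any gene. By level, 7 of the 10 genes were lower in ENR and 3 higher, and 57.7% of all genes were lower. In promoters, 0 of 10 passed (0% of 17950), 1 had an unadjusted p under 0.05 (4.39% of all) and 8 were lower in ENR, as were 52.1% of all promoters. In gene bodies, 0 of 9 passed (0% of 14012), 0 had an unadjusted p under 0.05 (3.52% of all), and 4 were lower and 5 higher in ENR, with 60.4% of all bodies lower. For the body minus promoter difference, 0 of 9 passed the test of housing (0% of 9152), and 2, Neurod2 and Tcf4, had an unadjusted p under 0.05 (3.54% of all).

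The groups did not overlap in 2 of 10 whole regions (Calb1 and Calb2), against 8.47% of all genes. With medians over sites in place of means it was 0 of the 6 genes whose median varied (7.36% of all genes), and with quantile-normalized libraries 1 of 10 (9.42%). For promoters this held for 3 of 10 (Neurod2, Calb1 and Calb2, all lower in ENR), with 9.49% of all promoters, and for bodies in 1 of 9 (Calb2), with 7.91% of all bodies. It held for the body minus promoter difference in 2 of 9 (Neurod2 and Calb2), with 7.57% of all genes. These counts rest on the same 3 genes throughout, Neurod2, Calb1 and Calb2.

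**Figure D3:**
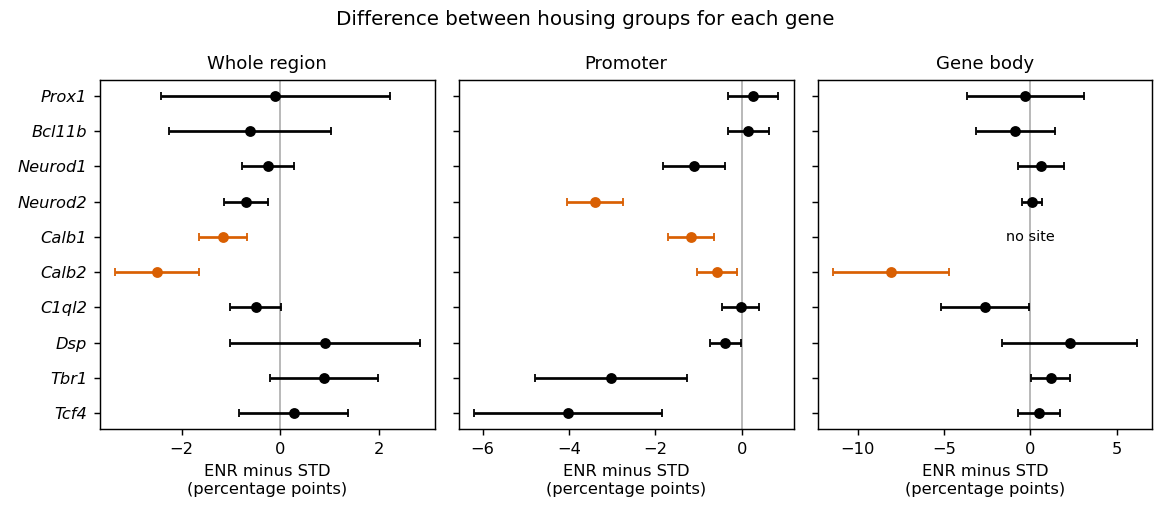
Difference ENR minus STD (percentage points) of each gene over its whole region, promoter and body, with the standard error from limma as bars and genes whose groups do not overlap in orange. The x axes differ between panels. The differences lie between -8.09 and 2.27 points, and none passed the test over all genes.

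Neurod2 (chr11:98325415-98329648, minus strand), which acts in differentiating and mature excitatory neurons, showed the clearest separation. Its promoter stood at 4.66%, 5.28% and 5.68% in the STD mice and at 1.90%, 1.99% and 1.53% in the ENR mice, with every ENR value under every STD value. The difference was -3.40 points ± 0.65 (SE), with an unadjusted limma p of 0.00087, an adjusted p of 0.993 and an exact two-sided permutation p of 0.1. Without both libraries numbered 3 it was -3.02 points (limma, adjusted p = 0.957). The body of the gene had 1.48% in STD and 1.57% in ENR and gave no such separation.

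The promoter difference of Neurod2 came from a short stretch just after the start. The run at -89 to 71 bp (13 sites) had 3.90%, 5.19% and 5.78% in STD and 1.95%, 0% and 0% in ENR. Its 5 sites upstream of the start were at 0% in all libraries, apart from 1.79% at -89 bp in STD replicate 3. The 6 sites at 16 to 57 bp, all read on the plus strand and in the untranslated part of the first exon, carried methylation in each STD library. At 57 bp, STD had 15.6%, 7.61% and 21.2% and ENR 8.16%, 0% and 0%. At 38 bp, STD had 9.20%, 7.06% and 22.4% and ENR 0% in all 3 libraries. Sites this close on the same strand can be read by the same sequencing reads and are not independent. With the promoter limited to the 1 kb upstream of the start, the difference was -0.12 points (limma, adjusted p = 0.986). The 247 bases before the start, from the RefSeq promoter window (chr11:98329649-98329895), and the 30 bases from 33 to 62 bp after it (chr11:98329586-98329615) are shown on the gene's strand, with covered CpGs in capitals, to set the unmethylated upstream CpGs beside those that differed in level. This gene was picked for display after its values were seen.
Neurod2 upstream: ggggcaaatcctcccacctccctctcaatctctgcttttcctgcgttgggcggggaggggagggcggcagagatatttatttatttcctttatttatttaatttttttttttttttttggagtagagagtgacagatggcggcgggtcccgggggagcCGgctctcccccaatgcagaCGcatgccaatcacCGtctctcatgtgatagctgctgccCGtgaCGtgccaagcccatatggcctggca
Neurod2 after the start: cactCGctcCGCGgctCGcatggCGctctg
Over the 5 covered sites of the second stretch, the means were 8.61%, 7.65% and 12.8% in STD and 3.11%, 0% and 0% in ENR. Over the 5 covered sites of the first they were 0%, 0% and 0.357% in STD and 0% in each ENR library.

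**Figure D4:**
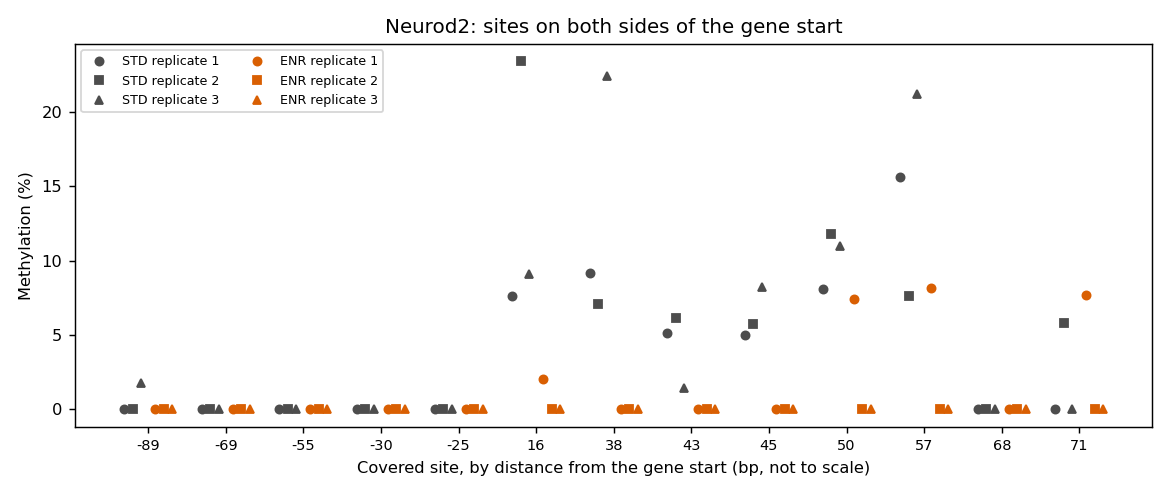
Methylation (%) of the 13 covered Neurod2 sites between -89 and 71 bp, ordered by distance from the gene start and not spaced to scale, with 1 point per library (STD grey, ENR orange). Upstream sites sit at or near 0%, and the STD points at 16 to 57 bp reach 23.4% while ENR replicates 2 and 3 are at 0%.

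Calb2, the calretinin gene (chr8:110137502-110168210, minus strand), was lower in ENR in each region. Its whole region had 7.68%, 9.34% and 7.77% in STD and 6.24%, 6.64% and 4.40% in ENR, a difference of -2.50 points ± 0.85 (unadjusted limma p = 0.025, adjusted p = 1.00, exact permutation p = 0.1). Without both libraries numbered 3 it was -2.07 points. The 10 body sites, all intronic and at 15280 to 15863 bp, had 23.5%, 31.4% and 23.7% in STD and 19.9%, 21.7% and 12.8% in ENR. This difference of -8.09 points ± 3.4 was the largest among the bodies of the genes (unadjusted limma p = 0.051, adjusted p = 1.00, exact permutation p = 0.1). The lowest ENR value was that of replicate 3, and without both libraries numbered 3 the difference was -6.70 points (limma, adjusted p = 0.929). At the Calb2 promoter, the 29 sites had 2.21%, 1.73% and 2.29% in STD and 1.54%, 1.46% and 1.51% in ENR, so that the groups were close but did not overlap. Its single sites did not all go this way. The site at -64 bp was higher in ENR without overlap, with 14.8%, 5.08% and 6.98% in STD and 30.8%, 24.1% and 16.7% in ENR. Those at -106 and 16 bp were lower in ENR without overlap.

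Calb1, the calbindin gene (chr4:15881264-15908064, plus strand), was covered at 8 sites around its start. Levels were 2.91%, 1.41% and 1.91% in STD and 0.446%, 0.962% and 1.34% in ENR. The difference of -1.16 points ± 0.49 had an unadjusted limma p of 0.054 (adjusted p = 1.00) over the whole region, which equals the promoter for this gene. STD replicate 2 and ENR replicate 3 nearly touched, and without both libraries numbered 3 the difference was -1.46 points. Calb1 and Calb2 thus both had lower levels in ENR over the whole region, as had 57.7% of all genes, without passing the test over all genes.

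In the other 7 genes the groups overlapped in the promoter and in the body. Prox1 had promoter levels of 2.17%, 1.37% and 1.01% in STD and 2.62%, 1.69% and 1.03% in ENR, and body levels of 23.6%, 24.4% and 17.1% against 25.8%, 23.0% and 15.5%. The range within a group thus far exceeded the difference of -0.29 points ± 3.4 in the body. For Bcl11b the body difference was -0.88 points ± 2.3, and for Dsp it was 2.27 ± 3.9. The Tbr1 promoter rested on 5 sites, with 9.55%, 5.71% and 2.89% in STD and 4.53%, 3.77% and 0.789% in ENR, which overlapped. Tbr1 has 4 annotated transcript starts, and 56 of its 77 sites lay within 1 kb of any of them. These had 4.86% in STD and 5.57% in ENR, so that much of what is called the Tbr1 body here lies near another start. The Tcf4 promoter had 15.3%, 13.4% and 14.97% in STD and 14.3%, 8.98% and 8.28% in ENR, where ENR replicate 1 lay among the STD mice. Its difference of -4.02 points ± 2.2 (SE) was -1.14 points with sites near any of its transcript starts and -2.69 points without both libraries numbered 3. The Neurod1 promoter, with 1.80%, 2.10% and 3.67% in STD and 2.29%, 0.725% and 1.25% in ENR, overlapped as well. The C1ql2 promoter had 1.41% ± 0.47 in STD and 1.39% ± 0.18 in ENR over its 85 sites. For the body minus promoter difference, Tcf4 was the only gene beside Neurod2 with an unadjusted p under 0.05 for housing (4.52 points ± 1.8, p = 0.041 by limma, adjusted p = 1.00, exact permutation p = 0.2). Its groups overlapped, and the 2 sites near 0.4 kb described above lie in its promoter.

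Runs of sites inside the genes were compared in the same way. Of 109 runs of at least 3 sites, 9 (8.26%) had groups that did not overlap, 5 lower and 4 higher in ENR, compared with 8.87% of the 76712 such runs in the table. Among these, the run of Bcl11b at 12147 to 12315 bp held 11 intronic sites and had 24.7%, 28.3% and 33.8% in STD and 42.0%, 40.5% and 36.5% in ENR. This was the largest difference among the 9, at 10.7 points. In Tcf4, 11 intronic sites at 37304 to 37584 bp had 5.21%, 6.62% and 5.27% in STD and 7.95%, 22.2% and 12.3% in ENR. Another Tcf4 run, of 10 sites at 256160 to 256238 bp, had 4.59%, 4.71% and 7.63% in STD and 2.74%, 2.70% and 1.80% in ENR. The other 6 were the starts of Calb1, Calb2, Dsp and Neurod2 named above or next to their promoters, a Bcl11b run at 23376 to 23523 bp and a coding Neurod2 run at 2177 to 2314 bp, and they differed by at most 4.31 points.

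At single sites, group means were over 25 points apart at 16 of 1088 sites (1.47%), 8 in each direction, compared with 1.94% of all sites. The groups also did not overlap at 7 of them (0.643%, against 0.81% of all sites). Of 839 sites that varied, 22 had an unadjusted limma p under 0.05 (2.62%, against 2.68% of all). No site was past an adjusted p of 0.05 together with 25 points, at these genes or elsewhere (0% of 615152 sites).

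In Bcl11b, an intronic site (chr12:107931773, 71829 bp from the start) had 31.4%, 42.0% and 31.9% in STD and 16.1%, 5.66% and 5.26% in ENR, and no covered site lay within 100 bp of it. A second Bcl11b site (chr12:107991405, 12197 bp) lay in the run of 11 sites above and had 25%, 14.3% and 37.5% in STD and 66.7%, 40% and 45.5% in ENR. All 9 covered neighbours within 100 bp were higher in ENR as well. In a coding exon of Dsp (chr13:38164848, 13554 bp), 7.14%, 30.8% and 23.3% in STD stood against 93.3%, 35.0% and 46.2% in ENR, with 4 of 4 neighbours higher too. Over this run of 5 sites at 13550 to 13572 bp the groups overlapped, with 5.67%, 42.9% and 14% in STD and 54.1%, 38% and 30.8% in ENR. Sites this close can be read by the same sequencing reads, in Dsp as in Bcl11b, so that neighbours are not independent. At this Dsp site the group means were 37.7 points apart, and ENR replicate 1 was by far the highest library. The lone Bcl11b site and the Dsp cluster are shown in 150 bases each (chr12:107931698-107931847 and chr13:38164773-38164922), on the gene's strand and with covered CpGs in capitals, since they contrast a CpG without covered neighbours with a group of 5 covered ones.
Bcl11b site: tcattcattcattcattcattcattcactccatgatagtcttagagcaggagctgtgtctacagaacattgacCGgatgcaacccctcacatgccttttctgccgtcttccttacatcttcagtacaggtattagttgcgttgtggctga
Dsp site: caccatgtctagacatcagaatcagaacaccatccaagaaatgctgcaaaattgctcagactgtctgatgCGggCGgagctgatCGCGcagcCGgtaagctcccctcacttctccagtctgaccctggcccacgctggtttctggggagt

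In Tcf4, the site at chr18:69683611 in an untranslated exon part had 30.6% ± 6.4 in STD and 66.5% ± 20.9 in ENR. The Tcf4 site at chr18:69473472, in an intron, had 66.5% ± 4.5 in STD and 33.0% ± 25.2 in ENR. All 5 sites named by the rule had an adjusted limma p of 0.852. The widest gap between group means at a single C1ql2 site (chr1:120342911) came from scattered STD values of 6.78%, 69.2% and 100%, against 2%, 0% and 16.7% in ENR, and the groups overlapped.

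Of 25 other genes of granule neuron development, from progenitor factors such as Eomes and Neurog2 to the X-linked Dcx, the microtubule protein of immature neurons, 24 were tested over the whole region and 22 in the promoter. None passed the adjusted test. Their median difference was -0.11 points over whole regions, against -0.19 over all genes, and 0.04 points in promoters, against -0.04. Groups did not overlap in 4 of the 24 whole regions, with 8.47% of all genes. Dcx had 50.3%, 46.0% and 52.5% in STD and 34.8%, 40.4% and 36.5% in ENR over 6 sites. Neurod6, a relative of Neurod2, had 49.7%, 54.5% and 48.2% in STD and 40.8%, 37.4% and 36.9% in ENR over 5 sites, and it and Dcx were the 2 of 24 genes of this list with an unadjusted limma p under 0.05 (3.86% of all genes). Neurog2 (0.87% in STD, 1.56% in ENR) and Bhlhe22 (0.53% and 1.27%) were higher in ENR by less than 1 point. Groups did not overlap in 5 of the 22 promoters, with 9.49% of all promoters. Of these, Dcx was lower in ENR (35.7% and 28.5%), and Sox11 (1.0% and 1.5%), Neurog2 (0.62% and 1.27%), Emx2 (2.69% and 4.14%) and Bhlhe22 (0.74% and 1.66%) were higher.

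Markers of other cells of the tissue were read in the same way. None of the 8 markers of CA pyramidal neurons, 6 of interneurons, 6 of astrocytes, 6 of oligodendrocytes, 5 of microglia and 3 of endothelium that were covered passed the adjusted test over whole regions, while Ociad2 and Mobp (-15.0 points) had an unadjusted limma p under 0.05 (2 of 34, against 3.86% of all genes). Levels were lower in ENR in 5 of 6 astrocyte, 4 of 5 microglia, 4 of 6 oligodendrocyte, 4 of 8 CA pyramidal, 3 of 6 interneuron and 1 of 3 endothelium markers, against 57.7% of all genes. Library means over the astrocyte list ranged from 20.7% to 21.9% in STD and from 17.5% to 20.1% in ENR, and those over the CA pyramidal list from 15.2% to 17.6% and from 14.8% to 15.2%, in both cases without overlap. Both pairs of ranges overlapped once the gene with the largest difference was left out. Without Ociad2, which differed by -10.5 points over 3 sites, the CA pyramidal list ranged from 13.8% to 15.3% in STD and from 13.7% to 15.1% in ENR, and without Aqp4 (-5.35 points) the astrocyte list ranged from 19.6% to 22.7% and from 17.8% to 20.7%. The ranges overlapped over the microglia list (51.4% to 61.3% in STD and 44.9% to 62.9% in ENR), the oligodendrocyte list (38.7% to 44.6% and 37.2% to 41.5%), the interneuron list (15.7% to 21.2% and 15.9% to 21.1%) and the endothelium list (49.3% to 51.4% and 48.1% to 56.2%). There was no overlap in 5 of 34 single markers, each lower in ENR, and in 8.47% of all genes. They were Dkk3 of CA neurons, Aldh1l1 and Slc1a3 of astrocytes, Mobp of oligodendrocytes and P2ry12 of microglia. Of the 18 marker promoters with at least 3 sites, none passed, and 1, that of Wfs1 of CA neurons, was without overlap, against 9.49% of all promoters. It was lower in ENR and was also the one with an unadjusted limma p under 0.05 (4.39% of all promoters). The part of these levels in the values of Neurod2, Calb1 and Calb2 was not tested.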

How the data were processed

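RRBS was done on dentate gyrus DNA of 6 mice, 3 STD and 3 ENR, grouped by their labels. Per the labels, reads were processed with Trim Galore 0.4.0, cutadapt 1.8.1, Bismark 0.16.1 and methylKit 1.5.2 on mm10, and the study's methods name other versions of Trim Galore and Bismark. The deposited table holds percent methylation per cytosine for sites with at least 10 reads in each of the 6 libraries. Read numbers are not in it, so neither another coverage minimum nor a count model could be used, and each site weighs the same. Percentages are bounded and noisy where few reads stand behind them.

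Sites were assigned to GENCODE M21 genes from 1 kb upstream to the gene end. Site percentages were averaged per gene and library for genes with at least 3 sites, and compared with limma 3.58.1 in R 4.3.3 (empirical Bayes with a variance trend, Benjamini-Hochberg adjustment over all genes, without a replicate block). The tests were checked on simulated data. Single genes also had an exact two-sided permutation test over 20 regroupings. Runs joined sites at most 100 bp apart. Named were all 10 genes, and per gene up to 2 sites over 25 points apart without overlap, the largest first and at most 1 per 100 bp. Sequences are from GRCm38. The rule for windows took the steepest change of the 3 genes with the largest body minus promoter difference (Dsp, Calb2 and Prox1) and a gene's first named site. Calb2 and Tcf4 are named only and have no window, and Neurod2 was added after its values were seen. Lists were other granule neuron development genes and markers of CA pyramidal neurons, interneurons, astrocytes, oligodendrocytes, microglia and endothelium. The members and all lists were chosen with earlier results of these data known. Alternatives covered the summary over sites, normalization, promoter definition, site limits, block and left-out libraries.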

Additional observations from a re-analysis of the deposited data

How the results depend on the processing

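None of the 10 genes passed the adjusted limma test over whole regions under any setting tried, which included an arcsine scale, no variance trend, at least 1 or 10 sites, averaged strands and centred libraries. The smallest adjusted p of a gene over its alternatives was 0.913 for whole regions, 0.883 for promoters and 0.929 for bodies. The gene body was above the promoter in 5 to 6 of 9 genes (78.4% to 84.1% of all genes), and in 5 of the 6 that could be tested with the 1 kb upstream only (54.4%), which left out Dsp, Tbr1 and Tcf4 for want of sites. Depth per site is unknown, so the precision of single values cannot be judged. Nor is it known how many methylated reads stand behind levels within 1 or 2 points of 0. Where a value changed side below, the cause was not tested.

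Whole regions without overlap numbered 2 of 10. They numbered 0 of the 6 that varied with medians over sites (7.36% of all genes), 1 of 10 with quantile normalization (9.42%) and 1 of the 6 with enough sites of 20% to 80% only (6.41%), where Calb1 had none. With a single library left out they numbered 2 to 4 of 10, against 15.4% to 19.9% of all genes, with 4 without STD replicate 1 (15.4%), as groups of 2 and 3 overlap less often. With both libraries numbered 3 left out they numbered 2 of 10 (33.7%). Sites over the limit of 25 points numbered 16 (1.47%, against 1.94% of all sites), compared with 32 at a limit of 20 (2.94%, against 3.74%) and 3 at 40 (0.276%, against 0.244%). With a library left out they numbered 20 to 32 (1.84% to 2.94%, against 2.6% to 3.42%), the 32 being without ENR replicate 1.

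The difference ENR minus STD over the whole region turned sign with quantile normalization for Prox1 (0.71 points), Bcl11b (0.052) and Neurod1 (0.14), with both libraries numbered 3 left out for Prox1 (0.37), Bcl11b (0.43) and Neurod1 (0.019), with centring for Prox1 (0.54) and with medians for Tcf4 (-2.19). In promoters it did so upstream only for Bcl11b (-0.088) and with any transcript start for Tbr1 (0.71). Leaving out both libraries numbered 3 for promoters and bodies, chosen after seeing the data like the block there, turned the sign of the body difference of Prox1 (0.36), Bcl11b (0.51) and C1ql2 (0.49). The body minus promoter difference turned sign upstream only for Neurod2 (2.04), with any start for Tcf4 (11.1), and with medians for Tcf4 (4.24) and Tbr1 (-4.30). Medians left Neurod2 at -2.08 and C1ql2 at 2.72 points.

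With single libraries left out, whole-region differences ranged from -1.71 to 1.98 for Prox1, -1.60 to 0.95 for Bcl11b, -0.76 to 0.024 for Neurod1, -0.31 to 1.78 for Dsp and -0.40 to 1.13 for Tcf4. Promoter differences ranged from -0.16 to 0.64 for Prox1, -0.0080 to 0.35 for Bcl11b and -0.18 to 0.24 for C1ql2. Body differences ranged from -2.59 to 2.66 for Prox1, -2.17 to 1.15 for Bcl11b, -0.77 to 1.58 for Neurod1, -0.25 to 0.48 for Neurod2, 0.094 to 4.01 for Dsp (the lowest without ENR replicate 1) and -0.11 to 1.35 for Tcf4, and body minus promoter from -0.79 to 0.78 for Neurod1. The Neurod2 promoter (-3.67 to -3.16), the Calb2 body (-9.87 to -5.43) and the Calb1 promoter (-1.50 to -0.75) stayed below 0. Their groups do not overlap, so leaving out a library could not turn the sign. Promoters whose groups overlap also stayed below 0 in Tcf4 (-5.92 to -2.90), Tbr1 (-4.60 to -1.27), Neurod1 (-1.53 to -0.53) and Dsp (-0.69 to -0.096).

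STD and ENR share replicate numbers. Libraries deviated with correlations of 0.060, 0.035 and 0.135 at the same number and -0.089 to 0.045 otherwise. Both numbered 3 deviated together, but mice were not taken as paired. A replicate block called 0 of the 10 genes and 0 of all 22934. An unadjusted p under 0.05 was then found for 1152 in place of 886. With the block, Calb2 (whole region, -2.50 points) had an unadjusted limma p of 0.017 and an adjusted p of 0.957. No promoter or body passed the adjusted test with the block. An unadjusted p under 0.05 was found at 2 promoters (Neurod2 and Tbr1, 4.6% of all) in place of 1 (4.39%). For bodies it was 1 (Calb2, 5.23%) in place of 0 (3.52%).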
